A study of Mus musculus with 16 samples.

Results

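The regions described here are stretches of the mouse genome in which single-strand breaks were called as a peak in Tdg-depleted embryonic stem cells after talazoparib and in none of the other 3 conditions. Peaks of the 4 deposited lists on chromosomes 1 to 19 that shared at least 1 bp were merged, which gave 60228 regions, and the regions that held peaks of the KO talazoparib list alone were kept. There were 7133 such regions, 11.8% of all merged regions and 30.6% of the 23278 regions of the KO talazoparib list (Wilson 95% interval 30.1 to 31.2). The members were thus chosen by where peaks were called and, through the caller's thresholds, by tags and fold over input. Those values are given below as a description only. Each region held 1 peak, the median length was 500 bp (346 to 2093), and together the regions covered 4.09 Mb.

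The cells were C57BL/6JRj mouse embryonic stem cells kept in serum-free 2i medium with LIF. They were wild type (WT) or lacked Tdg (KO), and they received DMSO, or 5 nM talazoparib for 24 h. The protocol, worded alike for every group, gives 4-hydroxytamoxifen (4-OHT) at 5 uM for 2 h to remove a Tdg minigene. Whether WT cells received 4-OHT, whether each line was 1 clone and how long DMSO was given are not stated in the sources used here. Each condition had 3 immunoprecipitated (IP) libraries and 1 input library, 16 in all. The authors deposited 1 pooled peak list a condition, so no spread between replicates can be shown and none of the differences below is a test of a treatment or genotype. Libraries of the 2 genotypes were sequenced on different flow cells (2 each, 0 shared), and genotype and flow cell cannot be told apart. Break peaks carry no expression values, so neither the cell type nor the loss of Tdg could be checked from them.

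TDG is a DNA glycosylase. It removes thymine from G·T mismatches and the oxidised cytosines, 5-formylcytosine and 5-carboxylcytosine, that TET enzymes make from 5-methylcytosine, and the base excision repair that follows passes through a nick in one strand. PARP1 and PARP2 bind such nicks and build poly(ADP-ribose) chains, which bring in XRCC1 and DNA ligase. Talazoparib blocks this enzyme activity and holds the PARP proteins on the DNA. In SSB-seq, DNA polymerase I extends nicks with digoxigenin-labelled nucleotides, and an antibody against digoxigenin pulls down the labelled DNA.

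Several of these regions are shown first. They were chosen among those with most tags of their kind, so they are examples and not typical members. Positions are on mm10 (GRCm38.p6), and letters are from the RefSeq genome. The first set holds 200 bp just before the transcription start of 3 protein-coding genes, written on the gene's own strand, then the centre of an intronic and of an intergenic region, on the plus strand. Capitals mark CG, the dinucleotide in which mammalian DNA is methylated. The stretches are chr10:79926843-79927042 (Arid3a, plus strand), chr16:56037820-56038019 (Trmt10c, minus strand), chr5:75156633-75156832 (Pdgfra, plus strand), chr4:156192805-156193004 (an intron of Agrn, the gene of agrin, which organises the nerve-muscle synapse) and chr15:38470638-38470837 (intergenic).
Arid3a: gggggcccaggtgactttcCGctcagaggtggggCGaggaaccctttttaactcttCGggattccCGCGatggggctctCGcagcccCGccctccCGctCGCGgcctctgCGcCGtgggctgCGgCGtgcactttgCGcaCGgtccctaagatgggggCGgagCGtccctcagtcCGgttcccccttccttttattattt
Trmt10c: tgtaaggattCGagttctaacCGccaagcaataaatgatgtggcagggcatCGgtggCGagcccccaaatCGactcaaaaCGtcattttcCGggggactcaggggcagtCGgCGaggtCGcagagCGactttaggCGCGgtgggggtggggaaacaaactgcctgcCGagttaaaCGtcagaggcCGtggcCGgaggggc
Pdgfra: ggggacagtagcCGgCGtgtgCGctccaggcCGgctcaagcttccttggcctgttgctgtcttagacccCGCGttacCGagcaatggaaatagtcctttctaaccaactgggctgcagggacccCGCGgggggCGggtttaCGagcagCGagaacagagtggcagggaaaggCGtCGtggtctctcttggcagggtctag
Agrn intron: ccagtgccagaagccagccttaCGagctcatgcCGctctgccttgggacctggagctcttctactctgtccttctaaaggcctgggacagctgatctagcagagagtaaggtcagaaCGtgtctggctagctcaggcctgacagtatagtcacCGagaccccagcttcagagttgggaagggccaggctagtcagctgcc
Chromosome 15 intergenic: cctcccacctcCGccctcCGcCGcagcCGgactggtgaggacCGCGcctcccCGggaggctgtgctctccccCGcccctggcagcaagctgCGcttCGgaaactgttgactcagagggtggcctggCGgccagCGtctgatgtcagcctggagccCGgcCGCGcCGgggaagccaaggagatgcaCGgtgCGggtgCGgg
The 3 promoters and the intergenic stretch held 14 to 19 CG each in 200 bp, and the Agrn intron held 4. Over all the regions of each kind, the median CG count per 100 bp was 2.79 in promoters, 1.40 in introns and 1.40 in intergenic sequence.

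The second set holds the regions that drew most tags or carried simple repeats, all on the plus strand. They are the centres of the region with most tags of all, chr12:3110088-3110287, of an intergenic region with telomere-type repeats, chr10:130594578-130594777, and of the CA-repeat region with most tags, chr12:3261638-3261837 (an intron of Rab10). Capitals mark CG in the first, TTAGGG in the second, and the repeat of TG, which is CA on the other strand, in the last.
Chromosome 12 region of most tags: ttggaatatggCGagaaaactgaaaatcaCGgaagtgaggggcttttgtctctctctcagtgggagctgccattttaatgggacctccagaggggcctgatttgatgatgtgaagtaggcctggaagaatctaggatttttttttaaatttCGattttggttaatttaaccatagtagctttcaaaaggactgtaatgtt
Chromosome 10 end: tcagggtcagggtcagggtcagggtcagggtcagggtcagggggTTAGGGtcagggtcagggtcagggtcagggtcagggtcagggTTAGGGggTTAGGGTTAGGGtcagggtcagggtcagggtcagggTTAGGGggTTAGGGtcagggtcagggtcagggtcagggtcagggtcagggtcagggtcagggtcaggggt
Rab10 intron: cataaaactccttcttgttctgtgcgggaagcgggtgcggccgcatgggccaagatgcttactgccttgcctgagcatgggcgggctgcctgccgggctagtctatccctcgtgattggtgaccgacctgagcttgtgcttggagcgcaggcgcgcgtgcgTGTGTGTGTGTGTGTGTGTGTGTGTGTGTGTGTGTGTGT
The chromosome 10 stretch held 6 copies of TTAGGG in 200 bp, and most of its other units differed from that hexamer in a letter.

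The regions were the weak end of the KO talazoparib list. Their median normalized tag count, IP tags in the peak per 10000000 IP tags, was 4.44, which corresponds to 29.5 tags, while peaks of the same list shared with another condition had a median of 11.0. Split into 10 equal groups by normalized tags, the list's strongest group held 0.807% peaks found in no other list and its weakest held 76.4%. IP tag density, in multiples of the mean over the sequenced genome, had a median of 2.17 in these regions and 3.63 in the shared peaks.

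The input library was also thin there. The median was 2.5 input tags a region, against 6 in the shared peaks, and 62.0% of the regions had fewer than 3, against 15.9%. Input density was below the library's mean in 98.0% of the regions and in 73.4% of the shared peaks. The authors' fold over input, whose lowest value in the list was 4, did not follow the tags: its median was 5.33 in these regions and 5.12 in the shared peaks. Medians of the other classes of a single list were also low. Regions found only in KO DMSO had medians of 4.63 normalized tags, 1.5 input tags and a fold of 6.74, and those found only in WT talazoparib 3.04, 1 and 10.4, each on its own list's scale. With 2.5 input tags a fold has a wide counting error. The 4 lists were built on 66.4 to 87.0 M IP tags and 24.5 to 38.1 M input tags.

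**Figure D1:**
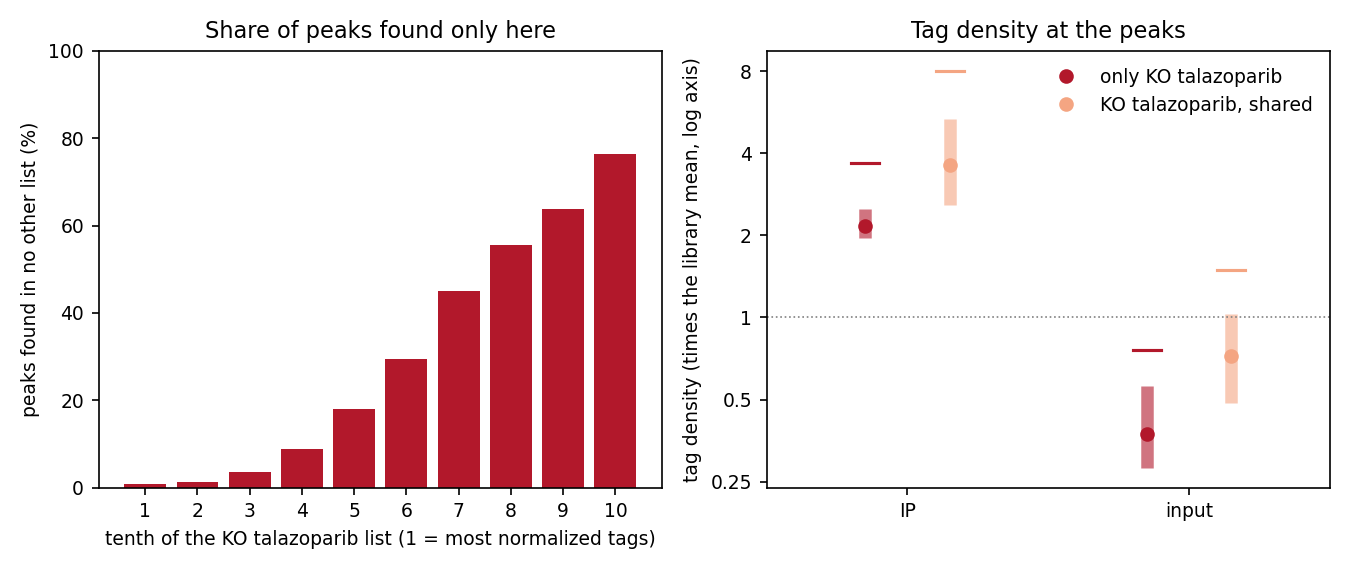
Left, the share of KO talazoparib peaks (%) found in no other list, in 10 equal groups of the list ordered by normalized tags, from 0.807% in the strongest to 76.4% in the weakest. Right, IP and input tag density in multiples of the library mean on a log axis, with dots for medians, bars for the middle 50% of peaks and ticks for the 95th percentile: both densities are lower in regions found only here (red) than in shared peaks (orange).

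Absence from another list did not mean distance from its peaks. The nearest peak of any other list lay at a median of 4065 bp, within 1 kb for 21.03% of the regions and within 5 kb for 55.1%, and beyond 50 kb for 559 regions (7.84%). It belonged to the KO DMSO list for 52.4% of the regions, to WT DMSO for 33.5% and to WT talazoparib for 14.1%. Those lists hold 44.6%, 35.9% and 19.5% of the peaks of the 3 lists together. At the edge of the rule, 2 regions each touched a peak of another list without sharing a base. The region at Bdh1, a ketone body enzyme, had 6.40 normalized tags. Its centre lay 17 bp from a transcript start, but not at a coding promoter. The other, in an intron of Atp1b1, a subunit of the sodium pump, had 5.72. Just outside the rule, a Tpd52 region with 4.89 normalized tags overlapped a WT DMSO peak by 1 bp, and a Gtf2ird1 region with 3.91 overlapped a KO DMSO peak by 2 bp. In all, 79 regions lay less than 50 bp from another list's peak, and 121 shared peaks overlapped another list by less than 50 bp.

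**Figure D2:**
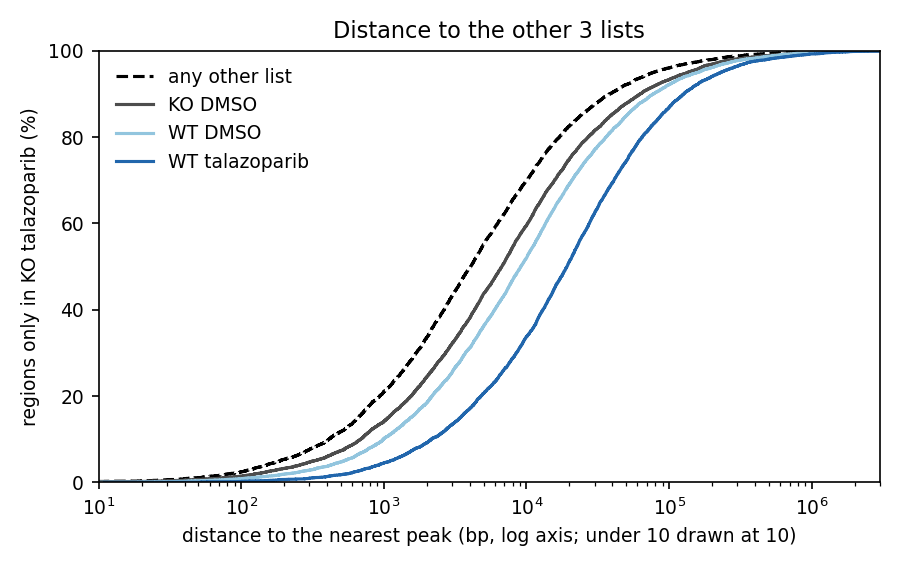
Cumulative share (%) of the 7133 regions against the distance in bp, on a log axis, to the nearest peak of each other list and of any of them (dashed). The KO DMSO curve lies to the left of the others, with a median of 6.72 kb against 9.12 kb for WT DMSO and 19.2 kb for WT talazoparib.

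The annotation was not used by the rule and was compared with 3 other classes of region: the 16145 KO talazoparib regions shared with another list, the 14978 found only in KO DMSO and the 4301 found only in WT talazoparib. Differences are in percentage points with Newcombe 95% intervals, and a difference is called where the interval excludes 0. These intervals cover counting error only, take neighbouring regions as independent and compare lists, not conditions. A region was placed by its centre, with a promoter reaching from 1 kb before to 100 bp after a transcription start of GENCODE M21.

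The regions found only in KO talazoparib lay mostly in introns and between genes, and less often at promoters than the shared regions did. Introns held 42.8% (41.7 to 44.0), intergenic sequence 31.6% (30.5 to 32.7), promoters 11.4% (10.7 to 12.2), the surroundings of transcription ends 6.90% and exons 5.85%. In the shared regions of the same list promoters held 44.9%, a difference of -33.5 points (-34.5 to -32.4) with the same direction on 19 of 19 chromosomes. Introns and intergenic sequence were correspondingly higher, by 18.7 points (17.4 to 20.1) and 12.5 points (11.3 to 13.8), each on 19 of 19 chromosomes. The median distance to the nearest transcription start was 6008 bp against 444 bp.

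Against the regions found only in KO DMSO no difference in promoter, intron or intergenic share was called. Introns held 42.0% of those and intergenic sequence 30.6%. Promoters held 12.3% of those, and the difference was -0.85 points (-1.74 to 0.07), in that direction on 12 of 19 chromosomes. The promoter difference passed the threshold under 5 of the other settings tried, for example at -3.34 points when every list was limited to a fold of at least 6, so its call rests on the setting. The regions found only in WT talazoparib lay in promoters in 9.02% of cases, 2.40 points below the KO talazoparib regions (1.26 to 3.52, 16 of 19 chromosomes). That difference turned to -0.27 points (-1.76 to 1.25) at a fold of at least 6, and to -2.15 points (-6.91 to 2.00) with at least 3 input tags, neither of which excludes 0. It was larger, 5.36 points (3.41 to 7.19), at a p-value of at most 1e-06 and 8.87 points (7.42 to 10.3) with equal numbers of best-scoring peaks from each list, and smaller, 1.16 points (0.28 to 2.01), at starts of protein-coding genes only.

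**Figure D3:**
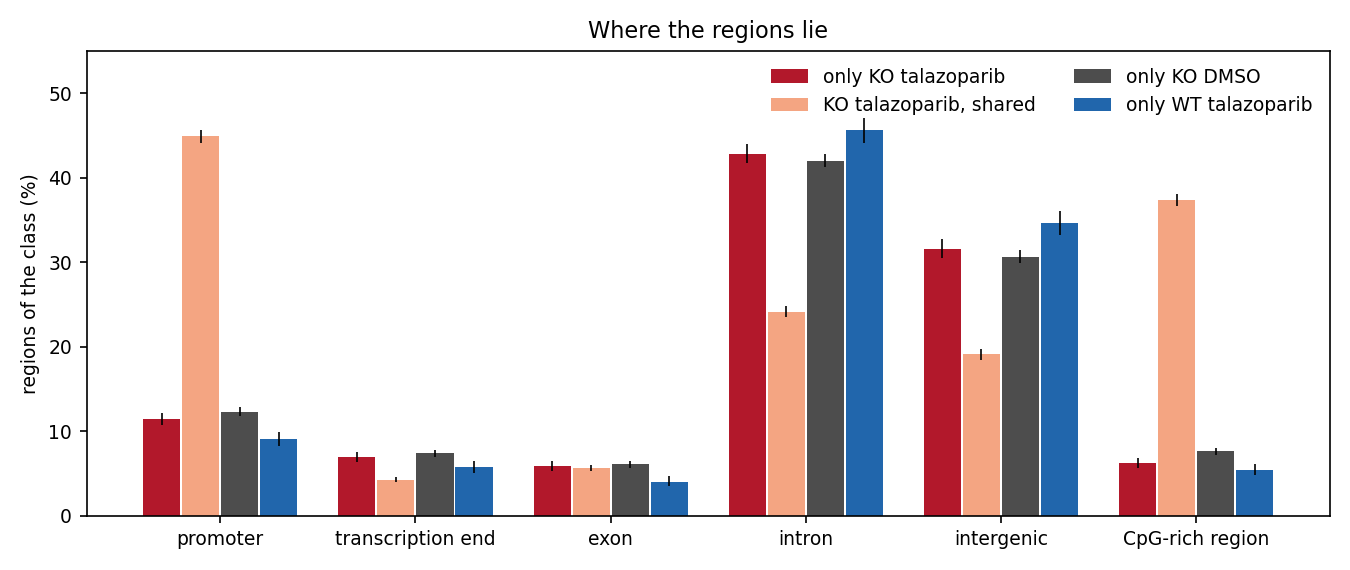
Share of regions (%, bars; Wilson 95% intervals, lines) whose centre lies in each annotation class, and share that is CpG-rich, for regions found only in KO talazoparib, KO talazoparib regions shared with another list, and regions found only in KO DMSO or only in WT talazoparib. The shared regions stand apart in promoters, 44.9% against 9.02% to 12.3%, and the 3 classes of a single list lie close together.

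Tag density moved with promoter share, and the gap to the shared peaks was measured again at like density. In 4 equal groups of the KO talazoparib peaks ordered by IP tag density, promoters held 6.86%, 12.3%, 25.4% and 42.3% of the peaks found only there, from the thinnest group to the densest. Of the shared peaks they held 11.6%, 19.5%, 43.0% and 73.9%. The differences were -4.76, -7.19, -17.6 and -31.6 points and each interval excluded 0. Among peaks of exactly 500 bp the shares were 10.0% and 26.2%, a difference of -16.1 points (-17.7 to -14.6). In these counts a shared peak took the annotation of the merged region that held it. Length was thus held for the peak and not for the region annotated. Whether the remaining differences in tags within a group play a part was not tested.

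**Figure D4:**
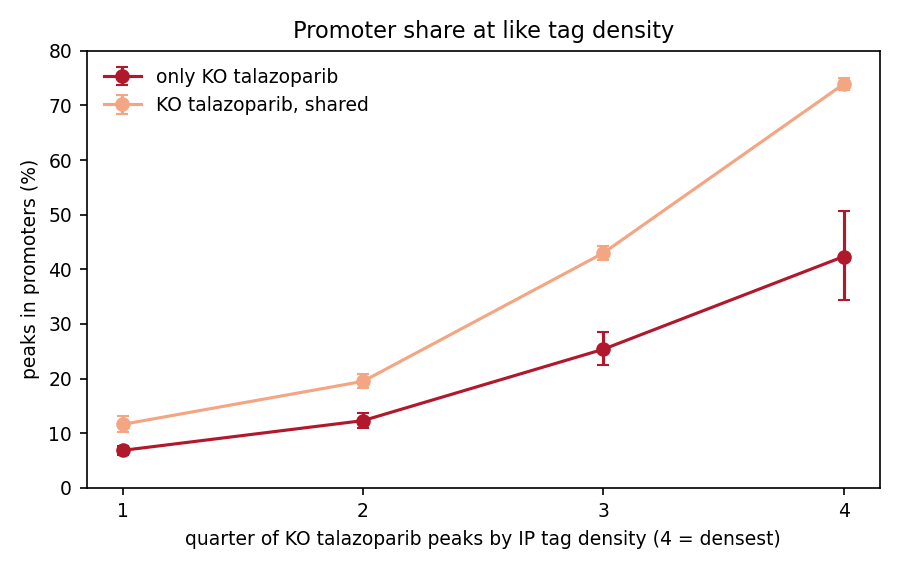
Promoter share (%, with Wilson 95% intervals) of KO talazoparib peaks found only there (red) and shared with another list (orange), in 4 equal groups ordered by IP tag density. The share is lower in the peaks found only there in each group, by 4.76 points in the thinnest and 31.6 points in the densest. A shared peak takes the annotation of its merged region.

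Over all regions, GC and CpG content were lower than in the shared regions. The median GC content was 50.3% (50.1 to 50.5), against 53.9% in the shared regions, 50.3% in regions found only in KO DMSO and 48.5% in those found only in WT talazoparib. CpG dinucleotides numbered 1.59 per 100 bp, against 3.34, 1.57 and 1.20 in the same order. In the 4 groups of tag density, from thinnest to densest, GC medians were 49.3%, 51.0%, 53.8% and 57.8% in the peaks found only there. In the shared peaks they were 49.0%, 50.5%, 54.1% and 56.9%, so the GC gap was not kept at like density. CpG medians were 1.40, 1.60, 2.40 and 4.59, against 1.36, 1.67, 3.16 and 5.36, so CpG stayed lower in the denser groups. CpG-rich regions, with GC above 50% and an observed over expected CpG ratio above 0.6, made up 6.18% of the regions and 37.3% of the shared ones, a difference of -31.1 points (-32.1 to -30.2). The share was 7.60% in KO DMSO alone, 1.42 points higher (0.71 to 2.11 in size, 15 of 19 chromosomes). Regions without any CpG were rare: 1.14%, against 0.204%, 0.527% and 4.23%.

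The share of regions rich in repeat sequence differed from that of each of the 3 classes and lay between them. More than 50% of the bases were soft-masked, that is marked as repeats in the RefSeq genome, in 18.5% of the regions. This was 13.4 points (12.4 to 14.4) above the shared regions and 8.12 points (7.10 to 9.15) above those found only in KO DMSO, but 15.8 points (14.1 to 17.5) below those found only in WT talazoparib. All 3 differences had the same direction on 19 of 19 chromosomes. Reads from repeats can map to several places, and the sources used here do not say how such reads were treated.

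Simple repeats were counted in the 300 bp around each centre on both strands. CA in 10 tandem copies, a microsatellite as in the Rab10 stretch above, was found in 244 of the regions, 3.42% (3.02 to 3.87), and in 3.21% of all 60228 regions. The share was 1.68% in the shared regions and 1.15% in regions found only in KO DMSO, differences of 1.74 points (1.29 to 2.22) and 2.27 points (1.83 to 2.75), on 19 of 19 chromosomes each. It was 14.6% in regions found only in WT talazoparib, 11.2 points higher (10.0 to 12.3), and 3.93% in those found only in WT DMSO. The intervals of those last 2 shares were 13.6 to 15.7 and 3.58 to 4.31, and their difference was not tested. In the KO talazoparib regions the share was 4.30% with fewer than 3 input tags and 1.99% in the others. With fewer than 3 it was 1.12% only in KO DMSO, 14.4% only in WT talazoparib and 4.42% only in WT DMSO. With at least 3 it was 1.23%, 17.4% and 3.31% in the same order. The part of input tags in the differences was not tested. GA in 10 tandem copies was found in 0.995% of the regions, 0.539% of the shared, 0.427% of those only in KO DMSO, 4.86% of those only in WT talazoparib and 0.896% of those only in WT DMSO. The CA-repeat regions were weak peaks, with a median of 3.99 normalized tags and a highest value of 11.4, in the Rab10 intron. Rab10 is a small GTPase of vesicle transport.

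The strongest of the regions were of another kind. The vertebrate telomere is built from tandem TTAGGG, and copies of it also lie inside chromosomes as interstitial telomeric sequence. TTAGGG in 2 tandem copies, on either strand, was found in 17 of the 7133 regions (0.238%, 0.149 to 0.381), and in 61 of all 60228 (0.101%). The share was 0.118% in the shared regions, a difference of 0.121 points (0.0094 to 0.270), and 0.0734% in regions found only in KO DMSO, a difference of 0.165 points (0.058 to 0.312). It was 0.0930% in regions found only in WT talazoparib (4 regions), where the difference of 0.145 points did not exclude 0 (-0.026 to 0.299), and 0.0369% in those found only in WT DMSO (4 regions). Such regions were few: 7 of the 10 regions with most tags carried the repeat, yet 8 of the 17 had 11.3 normalized tags or fewer.

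**Figure D5:**
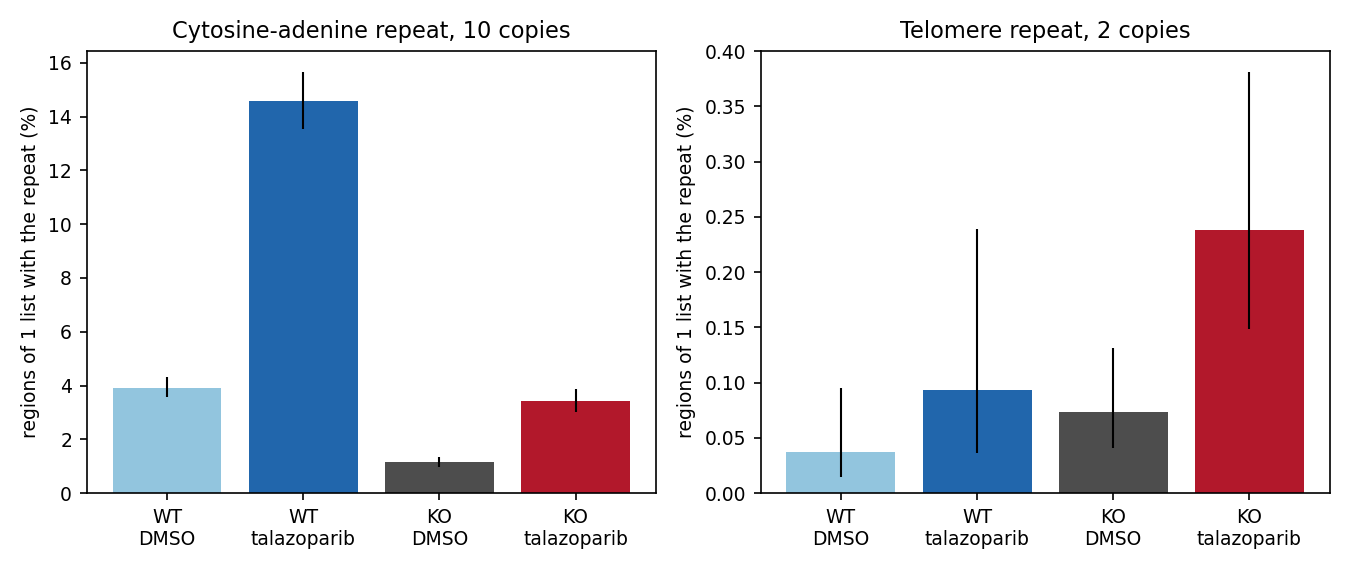
Share (%, bars; Wilson 95% intervals, lines) of the regions found in 1 list alone that hold the cytosine-adenine repeat (left) or the telomere repeat (right) in the 300 bp around the centre, by list. Regions found only in KO talazoparib have 3.42% and 0.238%, and those found only in KO DMSO 1.15% and 0.0734%.

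The intron of Flt1, which encodes the VEGF receptor VEGFR1, held the strongest of them, with 442.5 normalized tags, 229 input tags and a fold of 5.47. Input density there was 34.2 times the library mean. Introns of Ppp1r9a, a neuronal actin-binding protein, of Efna5, an ephrin ligand, and of Col23a1, a transmembrane collagen, held others, with 138.3, 67.7 and 31.3 normalized tags. An intron of Bard1, the partner of BRCA1, held one with 11.3 normalized tags and an input density of 0.821 times the mean.

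Of the telomere-repeat regions, 4 lay at the very end of an assembled chromosome. The region on chromosome 10, with 321.4 normalized tags, ended 1 bp before the last sequenced base, and those on chromosomes 14, 2 and 12, with 177.3, 154.6 and 107.1, ended 112, 107 and 84 bp before it. All told, 5 regions found only in KO talazoparib lay within 1 kb of a last base, against 1 each among the shared regions, those found only in KO DMSO and those found only in WT talazoparib, and 8 among all 60228. The input was high at the same places. Of the 16 regions with input at 2 or more times its mean, 9 carried the telomere repeat, and at the 4 chromosome ends input density ran from 5.57 to 22.1 times the mean. The telomere-repeat regions had a fold of 4.04 to 8.96, so the strongest were large IP counts over large input counts. Copy number and mapping at these sites were not tested. Whether the sites fell just short of the fold of 4 in the other conditions cannot be seen, since the lists give no values outside peaks.

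The region with most tags of all, chr12:3109560-3110814, carried no telomere repeat. It had 1553.5 normalized tags over 958 input tags, an input density of 71.4 times the mean and a fold of 4.59, and the nearest peak of another list lay 123253 bp away. An intron of Mdga2, a neuronal adhesion protein, had 171 normalized tags at an input density of 22.2 times the mean. The 10 regions with most tags held 8.01% of all normalized tags of the 7133 regions. Without the 16 regions of high input the promoter share was 11.4%, as with them.

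Genes were counted with a margin of 5 kb. Of 20807 protein-coding genes, 4384 (21.1%) had a region found only in KO talazoparib in the body or within 5 kb, and 11370 (54.6%) had a shared KO talazoparib region. Long genes had one more often: 10.5% in the shortest of 4 equal groups by gene length and 36.2% in the longest. In 307 of the 4384 genes (7.003%) no other list had a peak within the same window.

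The genes with most of these regions in the body were chosen for that number, which is given as a description. Gm20388, a gene model that spans 4435 kb and many other genes, held 51 against 97 shared regions, and Fgfr2, a fibroblast growth factor receptor whose model spans 2961 kb, held 11 against 33. Slc39a11, a zinc transporter gene of 405 kb, held 10 against 9 shared regions. Cdh4, which encodes R-cadherin and spans 457 kb, held 9 against 1 shared region. Arhgef10l, a guanine nucleotide exchange factor gene of 152 kb, held 8 against 2 shared, and Dst, a cytoskeletal linker gene of 400.4 kb, held 8 against 4. Macrod1 encodes a hydrolase that removes ADP-ribose from proteins. It held 7 in 141 kb, against 1 shared region. Cldn14, a claudin gene, and Nav2, a neuron navigator gene, also held 7, against 3 and 6 shared regions.

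At promoters of protein-coding genes lay 441 of the regions, those of 439 genes. Their median was 6.02 normalized tags and their median GC content 56.9%, and 37.9% of them were CpG-rich. The nearest peak of another list was at a median of 3340 bp, within 1 kb for 124 of them and beyond 50 kb for 47. The hexamer CCGCCC, the core of the GC box bound by Sp-family factors, lay in the 300 bp window of 173 (39.2%), against 14.9% of all 7133 regions, 42.6% of the shared regions and 22.9% of all 60228. It lay in 14.2% of regions found only in KO DMSO and 9.74% of those found only in WT talazoparib. These comparison shares are over regions of every kind, not promoters alone.

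The promoter region with most tags belonged to Ank1, which encodes an ankyrin of the membrane skeleton, with 101.9 normalized tags, 55 input tags and an input density of 5.47 times the mean. The other 19 of the 20 strongest had 19.2 to 32.6 normalized tags. Arid3a, a DNA-binding protein with preference for AT-rich sites, had 32.6 over 16 input tags and a fold of 5.77, with the centre 27 bp before the start in the sequence shown above. Its nearest other peak was in WT DMSO at 1799 bp.

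Rpa2, a subunit of replication protein A, which coats DNA in its unpaired form, had 24.9 normalized tags and a fold of 5.23. Top3b, a topoisomerase acting on DNA and RNA, had 19.9 and a fold of 6.62. Ube2t, the ubiquitin-conjugating enzyme of the Fanconi anaemia pathway, had 19.6, with the KO DMSO list nearest at 5778 bp. These 3 regions were centred 10 to 81 bp from a start.

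Polr1c, a subunit shared by RNA polymerases I and III, shares its promoter with Yipf3, and their region had 23.0 normalized tags with a WT DMSO peak 676 bp away. Trmt10c, a subunit of mitochondrial RNase P, had 22.7, with the nearest other peak 6993 bp away in KO DMSO. Elac2, which trims the 3' ends of tRNA precursors, had 19.7, with the nearest other peak 32837 bp away. These genes were picked out by tags alone, and no test of a shared function was made.

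The remaining promoters were of varied kinds. Camk2n2, an inhibitor of CaM kinase II, had 30.6 normalized tags. Jak3, a kinase of cytokine receptors, had 28.2, Sphk1, sphingosine kinase, 22.9, and Rreb1, a zinc finger transcription factor, 23.0. Pdgfra, the receptor of platelet-derived growth factor, had 20.8 and a fold of 5.89. The nearest peak to it was in WT talazoparib, at 2090 bp, while the KO DMSO list had none within 51855 bp. The region at Ccnyl1, a cyclin-like gene, lay only 43 bp from a KO DMSO peak.

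Gene lists of repair, methylation and cell state were read against the 21.1% of all coding genes, as counts without a test. For shared regions the share to read against was 54.6% of all coding genes. Among genes of base excision and strand break repair, 4 of 28 had a region, among them Lig1, Mpg and Fen1, while 23 of 28 had a shared one. Lig1, the replicative DNA ligase, had an intronic region with 7.75 normalized tags. Mpg, the glycosylase of alkylated bases, had one with 4.22 in its body or within 5 kb.

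Genes that write, read or remove DNA methylation had one in 12 of 26 cases and a shared one in 22. Their median length was 29.9 kb against 17.6 kb for all coding genes. Tet1, a dioxygenase that oxidises 5-methylcytosine, had 2, against 4 shared regions. The stronger had 9.79 normalized tags, 2067 bp from the nearest other peak and 7956 bp from the nearest KO DMSO peak. It fell in the promoter window of a transcript, but was not one of the coding promoters counted above. Tet3 had a promoter region with 6.62, 776 bp from the nearest other peak. Trim28, a corepressor at silenced retroelements, had a region with 7.30 in its body or within 5 kb, 276 bp from the nearest other peak. The Trim28 region was not one of the coding promoters either. Hells, a chromatin remodeller needed for DNA methylation, had a region with 7 normalized tags in its body or within 5 kb, and no shared one. That region was not one of the coding promoters counted above, and no other list's peak lay within 13842 bp of it.

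Among homologous recombination and Fanconi genes the count was 9 of 30, and 25 had a shared region. Bard1, named above, had the one with most tags, and Brip1, a helicase that binds BRCA1, had one with 5.57 normalized tags outside its annotated body. Imprinted genes had 12 of 31, and 22 had a shared region. Among the 12 was Grb10, a maternally expressed signalling adaptor in most tissues, with 10.3 normalized tags in an intron.

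Developmental genes held by Polycomb, which are typically silent and CpG-rich in embryonic stem cells, had a region in 18 of 50 cases and a shared one in 28. Tfap2a, a transcription factor of ectoderm and neural crest, had a promoter region with 12.3 normalized tags and no shared one. Hox genes, which set position along the body axis, had a region in 14 of 39 cases and a shared one in 8. The 14 genes share 9 regions, because the genes lie close together. The intron of Hoxc5 and Hoxc6 held the strongest, with 23.5 normalized tags, 7604 bp from the nearest KO DMSO peak. Clustered protocadherins gave 33 of 57, which rest on only 8 regions within overlapping gene models, and 21 had a shared region.

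Naive pluripotency genes had 4 of 26 with a region and 22 of 26 with a shared one, among them Tfcp2l1, a transcription factor of the naive state, with a promoter region of 12.3 normalized tags. Esrrb, an orphan nuclear receptor, had 2 against 10 shared regions. Primed epiblast genes had 6 of 16, p53 and its targets 4 of 20, and germline genes with methylated promoters 1 of 22. A shared region was found for 9, 18 and 10 genes in the same order. The germline gene with a region found only in KO talazoparib was Brdt, a testis bromodomain protein. It had 11.7 normalized tags at a promoter 27436 bp from any other peak.

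Cytosolic ribosomal protein genes had 18 of 75, housekeeping genes 7 of 24 and large late-replicating genes 11 of 25. A shared region was found for 66, 23 and 20 of them, and the large late-replicating genes had a median length of 1346 kb. Replication-dependent histone genes had 5 of 67, chemosensory receptor genes 14 of 1470 and genes of the 2-cell-like state 0 of 16. For shared regions these counts were 58, 23 and 0. Markers of other cells were 4 of 16 for extraembryonic endoderm, 3 of 13 for trophoblast and 2 of 15 for fibroblasts. Their counts with a shared region were 10, 5 and 4. Pdgfra is on both the endoderm and the fibroblast list.

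Across the 19 chromosomes the regions were spread like the rest of the list. Their number per Mb of sequence had a Pearson r of 0.9504 and a Spearman rank correlation of 0.958 with that of the shared regions, a description over chromosomes that share libraries and gene density. They made up from 27.2% of KO talazoparib regions on chromosome 6 (24.6 to 30.1) to 34.0% on chromosome 16 (30.9 to 37.4), the lowest and highest of the 19 shares. Of 2473 bins of 1 Mb, 1617 held at least 1. The fullest, on chromosome 17 from 28 to 29 Mb, held 22 together with 40 shared regions.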

How the data were processed

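SSB-seq was run on mouse embryonic stem cells, 16 libraries in 4 conditions, and groups were taken from the labels. Tools listed in the submitters' processing notes are HOMER 4.11, Bowtie2 2.3.4.2, R 3.6 and Picard 2.9.2, with build mm10 and no roles. Each deposited list pools the IP libraries of a condition. The normalized tag counts that the authors deposited are an IP signal, with values that correspond to tags per 10000000 IP tags. The deposited input signal comes in steps of 0.5 tags, a further deposited column of another unit (other) holds IP tags scaled to the input, and the authors' fold is the ratio of the last 2, at least 4. The deposited p-value was at most 8.32e-05, and the authors' score served only to rank peaks. Coordinates are printed as given, with no statement of whether the first base is 0 or 1.

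Lists were merged at 1 shared bp with Python 3.11.15, pandas 2.3.3 and scipy 1.17.1. Library totals (24.5 to 38.1 M input tags, 66.4 to 87.0 M IP tags) were worked out from the values' steps and give the densities. Annotation was GENCODE M21 on GRCm38.p6, and sequence was read from the RefSeq genome with pysam 0.24.0. Shares have Wilson and differences Newcombe 95% intervals. The interval functions and the merging were tested on simulated data. The planned edgeR test was not run, since the lists hold no counts per library. The members, gene lists and motifs were chosen with earlier results of these data known. Genes were named by rule: the 20 strongest coding promoters, the 10 strongest regions, the 5 genes with most regions (for the latter, Dst, equal to the last, and Macrod1, Cldn14 and Nav2 were added after their values were seen), up to 4 genes a list and the regions at the edge of the rule. The CA, GA and telomere repeats, their genes and the chromosome ends were singled out after values were seen. A few genes and sequences that these rules name are not reported here.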

Additional observations from a re-analysis of the deposited data

Results flagged for a closer look

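Chromosome X was outside the rule, and it too had regions found only in KO talazoparib: 73, which is 19.1% of the 383 KO talazoparib regions there. They are noted because no comparison above uses them. Their median was 4.29 normalized tags and 2 input tags, and the highest was 28.7. Unplaced contigs had 16 such regions of 35, with a median of 97.65 normalized tags, 64.5 input tags and a fold of 4.30.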

How the results depend on the processing

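Of 91 values recomputed under other settings, 55 kept their direction and their side of the threshold or, for counts and values without a test, stayed close to the main value. The promoter difference to the shared regions kept direction and call under every setting run, but its size, 33.5 points, came to 4.76 to 31.6 points within the 4 groups of tag density and 16.1 among peaks of 500 bp. The number of regions, 7133, became 3882 at a fold of at least 6, 4124 at a p-value of at most 1e-06, 4258 with at least 3 input tags and 4259 with equal numbers of best-scoring peaks. In the same order the promoter share became 16.8%, 16.0%, 18.7% and 20.0%, and the median GC content 49.95%, 51.1%, 51.9% and 52.3%. CpG per 100 bp became 1.69, 1.81 and 1.99 under the last 3 of these, 1.45 with peaks up to 1000 bp apart joined and 1.67 over 300 bp, where GC was 51.0%. The promoter share was 13.1% where sharing needed the peak covered by 50%, 17.4% with promoters 1 kb either side of a start, 15.5% by any overlap and 6.18% at starts of protein-coding genes only. The difference to KO DMSO passed the threshold at -0.94 points with peaks up to 200 bp apart joined, -3.34 at a fold of at least 6, -2.23 with the peak covered by 50%, -1.79 with promoters 1 kb either side and -1.81 by any overlap. The difference to WT talazoparib turned to -0.27 points at a fold of at least 6 and -2.15 with at least 3 input tags, and grew to 5.36 at a p-value of at most 1e-06 and 8.87 with equal numbers of best-scoring peaks, and was 1.16 at starts of protein-coding genes only. The cause of these shifts was not tested. Leaving out regions of high input and keeping peaks of 500 bp only were chosen after seeing the data. No paired analysis was possible because the lists pool the replicates, and leaving out replicates was not run for the same reason. Input depth limits the precision of the fold: 62.0% of the regions had fewer than 3 input tags.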

Other observations

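No difference to the shared regions was called for motifs of pluripotency factors. The octamer ATTTGCAT, bound by POU factors such as OCT4, lay in the 300 bp window of 1.98% of the regions on either strand, 1.83% of the shared regions and 1.77% of all 60228, and the difference of 0.15 points to the shared regions did not exclude 0 (-0.22 to 0.55). It lay in 1.35% of the regions found only in WT talazoparib, a called difference of 0.628 points (0.137 to 1.09, 16 of 19 chromosomes), and in 1.87% of those found only in KO DMSO, where none was called. TCAAGGTCA, bound by ESRRB, lay in 1.09% of the regions, 1.14% of the shared and 1.19% of all. The difference to the shared regions was -0.046 points (-0.325 to 0.263). It lay in 1.38% of those found only in KO DMSO and 0.791% of those found only in WT talazoparib, and neither difference was called. The E-box CACGTG lay in 6.00%, against 7.84% of the shared regions, a difference of -1.84 points (-2.52 to -1.14) with the same direction on 19 of 19 chromosomes, and 6.81% of all regions. Its share was 6.34% in regions found only in KO DMSO and 5.77% in those found only in WT talazoparib, and neither difference was called. A match of letters in a window is not a bound site.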
